A study of Mus musculus with 12 samples.

Results

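The genes described here carry the signal of the β-adrenergic receptors inside fat cells, from the G protein to the phosphodiesterases. The set was defined by gene symbol, as every probe set annotated to Adrb1, Adrb3, Adra2a, Gnas, Adcy3, Prkaca, Prkar2b, Pde3b or Pde4d. The genes were chosen with earlier results of these data known, so setting their counts against those of all probe sets is a description only. Of these 9 genes 6 were found, among 18194 genes named on the array, with 17 probe sets of its 45101. Adrb1, Adrb3 and Adra2a were not analysed here, so the set held no receptor and is best read as the steps that follow one. A probe set, the array's unit of measurement, is a group of short probes against 1 transcript region. Of the 17, 13 exceeded a log2 signal of 4 on at least 3 arrays and were tested, and 4 were too dim.

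The tissue was white fat from mice of the C57/BL6 strain, all males of 6 to 8 weeks that had been housed at 22 °C, and the labels name no engineered allele in any group. After 1 to 3 weeks of adaptation at 18 °C, mice spent 1 week or 5 weeks at 4 °C, and each time had its own controls, with 3 Affymetrix arrays in each of the 4 groups. For the controls the labels conflict, since titles say 30 °C and source names say room temperature, and they do not say whether the controls also passed through 18 °C. The fat depot is not stated. Whether each array holds the RNA of a different mouse is not stated either, and the p-values therefore reflect only how far arrays differed, which may be a technical spread.

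Noradrenaline from sympathetic nerves binds β-adrenergic receptors on fat cells, and the receptor switches on the stimulatory G protein, whose α subunit is encoded by Gnas. That subunit activates adenylyl cyclases such as Adcy3, which make cyclic AMP (cAMP). Cyclic AMP releases the catalytic subunits of protein kinase A from its regulatory subunits, and the freed kinase starts lipolysis and induces the thermogenic programme of brown and beige fat. Phosphodiesterases such as Pde3b, through which insulin restrains lipolysis, and Pde4d break cAMP down again.

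Promoter sequences are shown for the cyclase Adcy3 and the protein kinase A subunits Prkaca and Prkar2b, as the steps between the G protein and the phosphodiesterases, each of which rose in cold on at least 1 probe set at both times. Gnas and Pde4d rose at both times too, and their windows are summarised after these. RefSeq held upstream windows for 5 of the 6 genes, 11 in all, and the first listed window of each of the 3 is given on mouse build GRCm38.p6, as the 250 bases before the gene's start, 5′ to 3′. Capitals mark TGACG, the short form of the cAMP response element, read on either strand. Prkaca lies on the plus strand (chr8:83972728-83972977), Adcy3 on the plus strand (chr12:4133147-4133396) and Prkar2b on the minus strand (chr12:32061278-32061527).
Prkaca: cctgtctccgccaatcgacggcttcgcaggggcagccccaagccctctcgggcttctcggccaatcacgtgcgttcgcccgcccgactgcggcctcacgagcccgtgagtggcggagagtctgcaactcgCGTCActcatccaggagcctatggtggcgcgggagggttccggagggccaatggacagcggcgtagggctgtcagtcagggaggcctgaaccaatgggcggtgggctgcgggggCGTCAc
Adcy3: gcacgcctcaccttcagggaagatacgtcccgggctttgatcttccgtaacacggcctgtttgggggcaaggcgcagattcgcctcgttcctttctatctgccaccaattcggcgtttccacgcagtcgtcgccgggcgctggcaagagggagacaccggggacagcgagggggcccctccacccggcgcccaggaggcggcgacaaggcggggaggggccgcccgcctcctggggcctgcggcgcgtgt
Prkar2b: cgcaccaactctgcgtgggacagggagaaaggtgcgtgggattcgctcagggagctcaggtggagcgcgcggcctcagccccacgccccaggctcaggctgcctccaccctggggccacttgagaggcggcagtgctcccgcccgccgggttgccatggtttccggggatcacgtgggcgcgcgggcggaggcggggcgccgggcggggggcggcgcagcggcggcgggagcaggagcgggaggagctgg
The Prkaca window held 2 short elements, at -120 and -6 from the start, and the Adcy3 and Prkar2b windows held none. Among the other windows of these genes, 3 of the 4 of Gnas held a short element, 2 of those windows overlapping at the same site, and the single window of Pde4d held none. The second windows of Prkaca, Adcy3 and Prkar2b held none either. Of 32851 windows of the same length, 17.8% held a short element and 1.55% the full element TGACGTCA, which was in none of the 11 windows. A match is a description of the letters and not a measured binding site.

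Most of the tested member probe sets rose in cold against control at both times. At 1 week 10 of the 13 tested probe sets rose and none fell at a limma adjusted p under 0.05, where 17.5% of all 26510 tested probe sets rose and 27.2% fell. At 5 weeks 10 again rose and none fell, where 12.6% of all tested probe sets rose and 18.5% fell. At an unadjusted p under 0.05, 11 rose and 1 fell at 1 week, and 11 rose and none fell at 5 weeks. The median log2 difference of the 13, cold minus control, was 0.53 at 1 week and 0.70 at 5 weeks, and over all tested probe sets it was -0.04 and -0.02. In 11 probe sets at 1 week and 12 at 5 weeks all 3 cold arrays lay above all 3 controls, as they did in 27.5% and 27.1% of all tested probe sets. Probe sets of 1 gene share their transcript, so these counts are not of independent genes. Centring each array on its median moved the median of all tested probe sets to 0.12 and 0.13 and the share of rises among all calls from 39.1% to 60.9% at 1 week and from 40.5% to 67.1% at 5 weeks, and under it 11 members rose and none fell at each time. Quantile normalization gave shares of 47.9% and 51.6%.

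**Figure D1:**
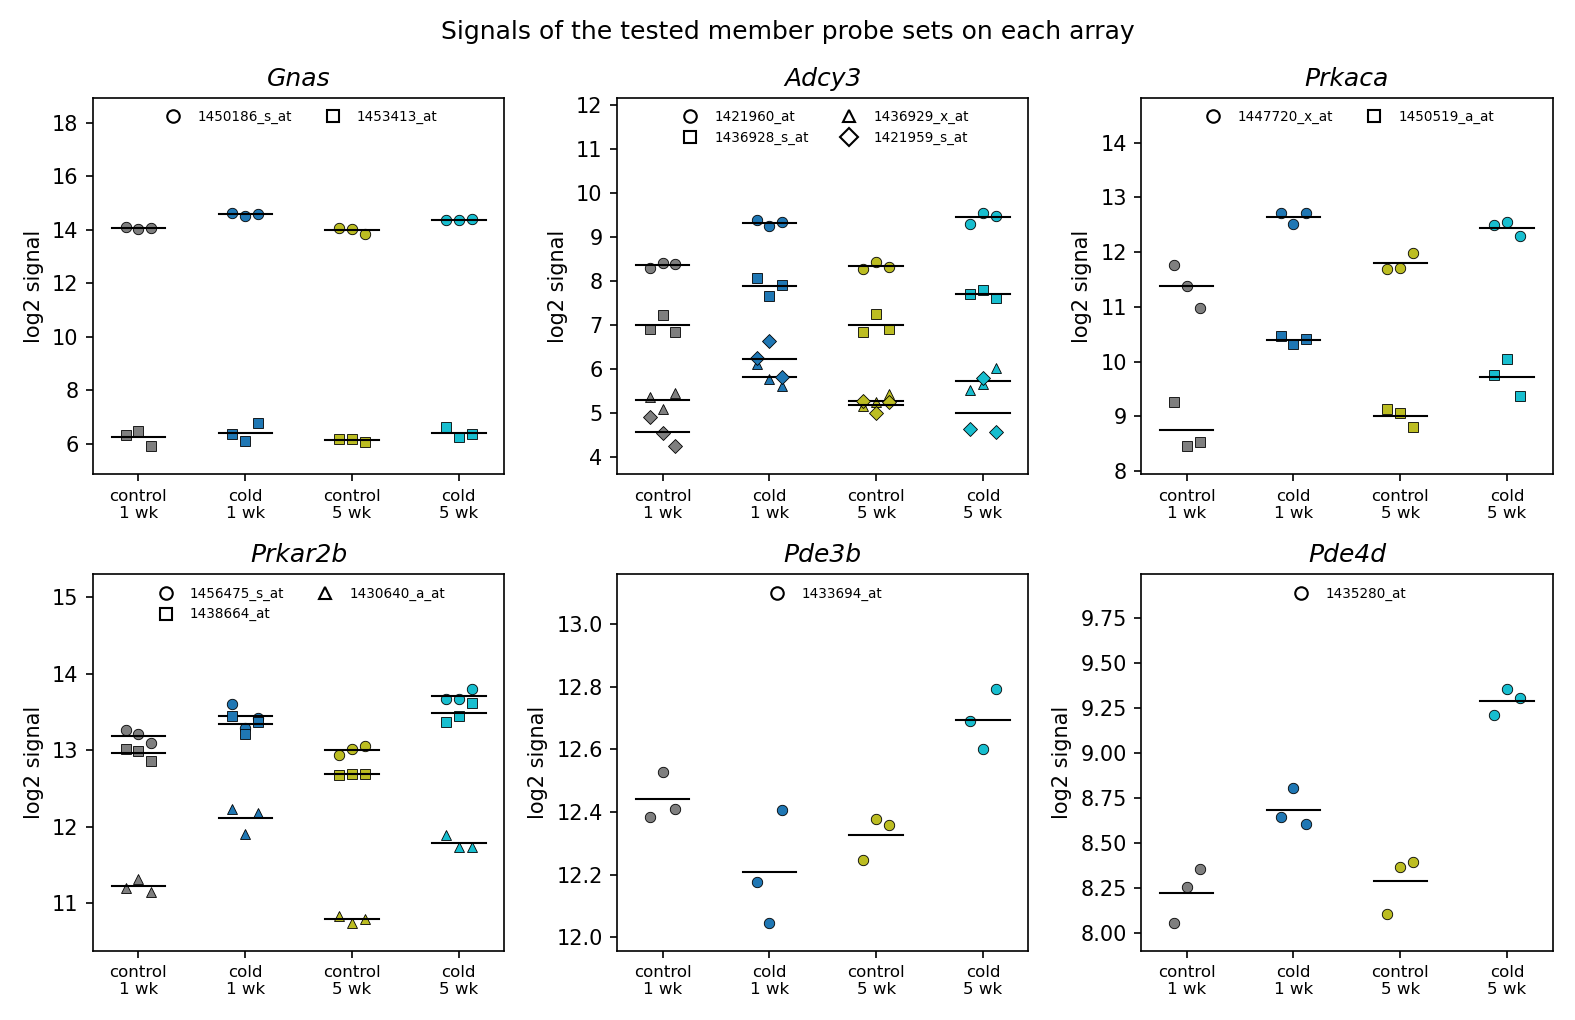
Log2 signal of the 13 tested probe sets on each array, with 1 panel a gene, 1 marker shape a probe set and a line at each group's mean of 3 arrays. Each vertical axis has its own range and does not start at 0; cold arrays lie above their controls in most panels, while the 1 week cold arrays of Pde3b reach lower than its controls.

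Gnas encodes the stimulatory α subunit that couples β-adrenergic receptors to adenylyl cyclase, within an imprinted locus that makes several transcripts. Its bright probe set 1450186_s_at gave log2 signals of 14.09, 14.02 and 14.06 on the 1 week controls and 14.64, 14.53 and 14.60 on the 1 week cold arrays. At 5 weeks it gave 14.08, 14.04 and 13.86 on controls and 14.35, 14.38 and 14.39 in cold. No cold array overlapped a control array at either time. The rise was 1.45-fold at 1 week (log2 0.53, SE 0.08, adjusted p = 4.68e-04, n = 3 a group) and 1.30-fold at 5 weeks (log2 0.38, SE 0.08, adjusted p = 0.0053).

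A second Gnas probe set, 1453413_at, was far dimmer, between 5.90 and 6.76, with overlapping groups at 1 week. Its differences of 0.17 (95% interval -0.23 to 0.58) and 0.28 (-0.12 to 0.68) did not pass the test. The remaining 3 Gnas probe sets stayed between 2.43 and 2.94 on all 12 arrays, below the filter, so the rise of Gnas rests on 1 of its 5 probe sets.

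Adcy3, the adenylyl cyclase of the set, rose on 4 probe sets at 1 week and on 2 at 5 weeks. The brightest, 1421960_at, read 8.28, 8.40 and 8.38 on the 1 week controls against 9.39, 9.25 and 9.33 in cold, and 8.26, 8.43 and 8.32 against 9.29, 9.54 and 9.48 at 5 weeks. Both cold groups sat close together and well clear of both control groups. The change was 1.96-fold at 1 week (log2 0.97, SE 0.09, adjusted p = 3.04e-05) and 2.15-fold at 5 weeks (log2 1.10, SE 0.09, adjusted p = 2.02e-05).

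The other Adcy3 probe sets did not all follow this course. With 1436928_s_at the rise was log2 0.88 (SE 0.15, adjusted p = 7.98e-04) at 1 week and 0.70 (SE 0.15, adjusted p = 0.0045) at 5 weeks. With 1436929_x_at, whose suffix marks probes that can bind other sequences, it was 0.52 (SE 0.16, adjusted p = 0.0247) at 1 week, and 0.46 (adjusted p = 0.0569) at 5 weeks, which did not pass. The 1 week call of 1436929_x_at was lost without the second control array of 1 week (log2 0.41, adjusted p = 0.0963) or without the first cold array of 1 week (0.38, adjusted p = 0.0940).

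The dim probe set 1421959_s_at of Adcy3 went a different way at 5 weeks. It read 4.90, 4.54 and 4.24 on the 1 week controls and 6.25, 6.63 and 5.81 in cold, then 5.28, 4.99 and 5.25 on the 5 week controls and 4.63, 5.80 and 4.57 in cold. The groups were apart at 1 week, and at 5 weeks 1 cold array was above the controls and the other two were below them. Its difference was 1.67 (SE 0.32, adjusted p = 0.0017) at 1 week and -0.17 (SE 0.32, adjusted p = 0.717) at 5 weeks, and the 5 week value had a 95% interval of -0.87 to 0.53. With the 3′ to 5′ signal of the Gapdh controls as a covariate, its 1 week call was lost (log2 1.04, adjusted p = 0.0859).

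Protein kinase A is a complex of catalytic and regulatory subunits, and Prkaca encodes the catalytic subunit Cα. Its probe set 1450519_a_at read 9.26, 8.45 and 8.52 on the 1 week controls and 10.46, 10.33 and 10.42 in cold. At 5 weeks the readings were 9.14, 9.06 and 8.80 on controls and 9.76, 10.05 and 9.37 in cold. All cold arrays were above all controls of their time, and the cold arrays of 1 week were above those of 5 weeks. The rise was 3.15-fold at 1 week (log2 1.66, SE 0.22, adjusted p = 2.03e-04) and 1.66-fold at 5 weeks (log2 0.73, SE 0.22, adjusted p = 0.0277).

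A brighter Prkaca probe set, 1447720_x_at, also had all cold arrays above the controls of their time, but its cold arrays of 1 and 5 weeks overlapped. Its suffix too marks probes that can bind other sequences. Controls of 1 week read 11.75, 11.38 and 10.98 and cold arrays 12.72, 12.51 and 12.70, followed at 5 weeks by 11.69, 11.72 and 11.97 on controls and 12.49, 12.54 and 12.30 in cold. The rise was 2.41-fold at 1 week (log2 1.27, SE 0.17, adjusted p = 2.29e-04) and 1.57-fold at 5 weeks (log2 0.65, SE 0.17, adjusted p = 0.0151). At 5 weeks its call was lost without the first (log2 0.60, adjusted p = 0.0566) or the second control array (0.61, adjusted p = 0.0541). For 1450519_a_at the 5 week call was lost without the second (0.76, adjusted p = 0.0605) or the third control array (0.63, adjusted p = 0.0941), or without the first (0.71, adjusted p = 0.0723) or second cold array (0.56, adjusted p = 0.0971). Both 1 week calls held without any single array.

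Prkar2b encodes RIIβ, the regulatory subunit of protein kinase A that predominates in adipose tissue, where it holds the catalytic subunits inactive until cAMP binds. Its probe set 1430640_a_at read 11.20, 11.31 and 11.15 on the 1 week controls and 12.24, 11.91 and 12.19 in cold, and 10.84, 10.75 and 10.79 against 11.89, 11.73 and 11.74 at 5 weeks. Cold lay above control on every array, and the 5 week groups both lay below their 1 week counterparts. The rise was 1.85-fold at 1 week (log2 0.89, SE 0.10, adjusted p = 8.74e-05) and 1.99-fold at 5 weeks (log2 0.99, SE 0.10, adjusted p = 6.76e-05).

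The 2 brighter Prkar2b probe sets gave smaller values at 1 week. On 1456475_s_at controls read 13.26, 13.22 and 13.09 and cold arrays 13.60, 13.30 and 13.43 at 1 week, and 12.93, 13.02 and 13.05 against 13.66, 13.66 and 13.80 at 5 weeks. The groups did not overlap, but the 1 week difference of 0.25 (SE 0.10, adjusted p = 0.0546) did not pass, while the 5 week rise was 0.71 (SE 0.10, adjusted p = 3.90e-04). Without the second cold array of 1 week the 1 week difference was 0.33 (adjusted p = 0.0214) and passed. On 1438664_at, the arrays of which ran from 12.67 to 13.62, the rise was 0.38 (SE 0.09, adjusted p = 0.0076) at 1 week and 0.80 (SE 0.09, adjusted p = 1.75e-04) at 5 weeks. The catalytic subunit Prkaca and the regulatory subunit Prkar2b therefore both rose at both times, Prkar2b on 2 of its 3 probe sets at 1 week.

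The phosphodiesterases Pde3b and Pde4d break down the cAMP that this cascade makes. Pde4d, a member of the cAMP-specific family 4, read 8.06, 8.25 and 8.35 on the 1 week controls and 8.65, 8.80 and 8.61 in cold. At 5 weeks the controls read 8.11, 8.36 and 8.39 and the cold arrays 9.21, 9.36 and 9.31. Cold was above control throughout, with the 5 week cold arrays highest of all. Pde4d rose 1.38-fold at 1 week (log2 0.46, SE 0.11, adjusted p = 0.0060) and 2.01-fold at 5 weeks (log2 1.00, SE 0.11, adjusted p = 1.05e-04). These values are of probe set 1435280_at, since the other Pde4d probe set stayed between 2.34 and 2.53.

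Pde3b was the only member gene whose 1 week value lay below 0. Its single probe set, 1433694_at, read 12.39, 12.53 and 12.41 on the 1 week controls and 12.18, 12.05 and 12.40 in cold, so 1 cold array reached into the control range. At 5 weeks it read 12.25, 12.38 and 12.36 on controls and 12.69, 12.60 and 12.79 in cold, with no overlap. The 1 week difference of -0.23 (SE 0.10, adjusted p = 0.0928) did not pass, and the 5 week rise was 1.29-fold (log2 0.37, SE 0.10, adjusted p = 0.0206). Single arrays and the scaling decided these calls. With quantile normalization Pde3b fell by 0.34 at 1 week (adjusted p = 0.0256), and with each array centred on its median the 1 week value was -0.07 (adjusted p = 0.617). The 1 week value was -0.33 (adjusted p = 0.0242) without the third cold array. The 5 week call was lost without the first control (0.33, adjusted p = 0.0776), the first cold (0.37, adjusted p = 0.0521) or the third cold array (0.32, adjusted p = 0.0665).

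**Figure D2:**
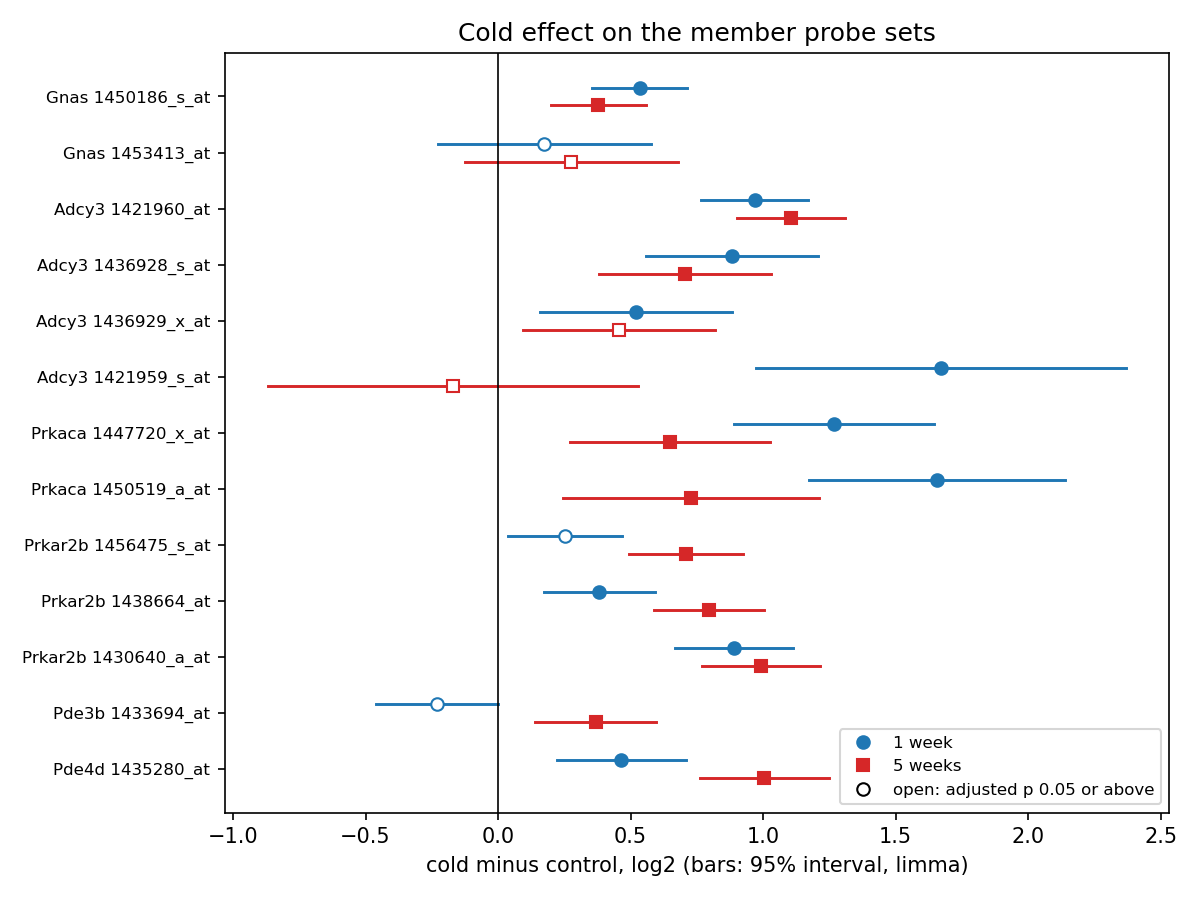
Cold minus control on the log2 scale for the 13 tested probe sets at 1 week (blue circles) and 5 weeks (red squares), with 95% intervals from limma and open markers where the adjusted p was 0.05 or above. The values run from -0.23 to 1.67 at 1 week and from -0.17 to 1.10 at 5 weeks.

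Whether the cold effect differed between the times was tested as the 5 week difference minus the 1 week difference. It was higher at 5 weeks for 3 of the 13 probe sets and lower for 1, where 10.2% of all tested probe sets were higher and 9.47% lower. Pde3b differed by 0.60 (SE 0.15, adjusted p = 0.0198), Pde4d by 0.54 (SE 0.16, adjusted p = 0.0352) and Prkar2b by 0.46 on 1456475_s_at (SE 0.14, adjusted p = 0.0407). Adcy3 differed by -1.84 on its dim probe set 1421959_s_at (SE 0.45, adjusted p = 0.0193), but by 0.14 on its brightest (adjusted p = 0.493).

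Of these 4, Adcy3 1421959_s_at kept its call without any 1 array, with a highest adjusted p of 0.0488. The call of Pde3b was lost without the second control array of 1 week (0.56, adjusted p = 0.0515) or the first of 5 weeks (0.56, adjusted p = 0.0525). Leaving out single arrays ended the call of Pde4d in 8 of 12 cases (0.45 to 0.62 over all 12, highest adjusted p = 0.0815), the exceptions being the first control and second cold array of 1 week, the third control of 5 weeks and the first cold array of 5 weeks. For Prkar2b it ended the call in 10 of 12 (0.38 to 0.54, highest adjusted p = 0.0944), the exceptions being the third control and first cold array of 1 week. Prkaca was lower at 5 weeks by values that did not pass, -0.62 (SE 0.24, adjusted p = 0.0951) and -0.93 (SE 0.31, adjusted p = 0.0581). They passed without the first control array of 1 week (-0.81, adjusted p = 0.0180, and -1.19, adjusted p = 0.0089), and the second also without the second cold array of 5 weeks (-1.09, adjusted p = 0.0373). The Prkar2b probe set 1438664_at, at 0.41 (adjusted p = 0.0524), passed without the first cold array of either time (0.47, adjusted p = 0.0476 and 0.0466).

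Levels at 5 weeks were also set against those at 1 week within the same temperature. In cold, Pde4d rose by 0.61 (SE 0.11, adjusted p = 0.0033) and Pde3b by 0.49 (SE 0.10, adjusted p = 0.0069). Adcy3 1421959_s_at fell by 1.23 (SE 0.32, adjusted p = 0.0162), Prkaca 1450519_a_at by 0.68 (SE 0.22, adjusted p = 0.0407) and Prkar2b 1430640_a_at by 0.32 (SE 0.10, adjusted p = 0.0352). These 5 of 13 compare with 28.4% of all tested probe sets called in either direction. In the controls 1 of 13 was called, where 3.33% of all were, namely Prkar2b 1430640_a_at, which fell by 0.43 (SE 0.10, adjusted p = 0.0484). These comparisons share arrays with the cold effects and are not independent of them.

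Signs of RNA quality and of other tissue moved with the groups, and in bulk tissue fewer cells of a type and less RNA per cell cannot be told apart. The control probe sets for Gapdh at the 3′ and 5′ end differed by log2 0.90 to 3.12 on the 1 week controls and by -0.08 to 0.34 on the 1 week cold arrays, and by -0.08 to 0.03 and 0.19 to 3.01 on the 5 week groups. The same difference for Actb was 1.84 to 2.80 in the 5 week cold arrays and 1.01 to 1.35 in the other 9. Skeletal muscle markers, 11 of 12 above the filter, averaged 8.36 to 8.63 on the 5 week controls and 4.90 to 5.77 on all other arrays except the second cold array of 1 week, at 9.82. The 7 brown and beige adipocyte markers averaged 6.10 to 6.95 on control and 11.0 to 11.6 on cold arrays. The mean of the 6 measured adipocyte markers lay between 12.6 and 13.3 on all arrays, but single markers moved. The median cold minus control difference of these 6 was log2 0.15 at 1 week and -0.51 at 5 weeks. Macrophage markers averaged 10.2 to 10.7 on controls and 9.41 to 9.99 in cold, and lymphocyte markers 9.55 to 10.3 and 8.75 to 9.25. The 5 measured fibroblast and progenitor markers averaged 12.9 to 13.0 on controls and 12.2 to 12.5 in cold at 1 week, and 12.7 to 12.8 and 12.3 to 12.4 at 5 weeks. The part of the macrophage, lymphocyte, fibroblast and progenitor markers in the results was not tested. None of the 6 measured mesothelial and epididymal markers passed the filter. Array medians were 4.79 to 4.89, and arrays of a group correlated at 0.991 to 0.998.

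With the Gapdh difference as a covariate 7 of the 10 member calls at 1 week and 9 of 10 at 5 weeks remained past the threshold, among 18.5% and 26.4% of all tested probe sets called in either direction. With the muscle marker mean as a covariate the 5 week count was 5, which were Adcy3 1421960_at, all 3 probe sets of Prkar2b and Pde4d, among 14.2% called. With the Actb difference it was 2, Adcy3 1421960_at and Prkar2b 1430640_a_at, among 3.98% called. That difference nearly coincides with the 5 week cold group, and the values whose calls it ended included Gnas at 0.37 (adjusted p = 0.256), Prkaca 1447720_x_at at 0.84 (adjusted p = 0.226), Pde4d at 0.96 (adjusted p = 0.0527) and Pde3b at 0.23 (adjusted p = 0.605). The Gapdh difference also separated cold from control arrays without overlap at both times, and so did the muscle mean at 5 weeks. Where a covariate separates the groups, here and below, a lost call cannot tell cold from the covariate.

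**Figure D3:**
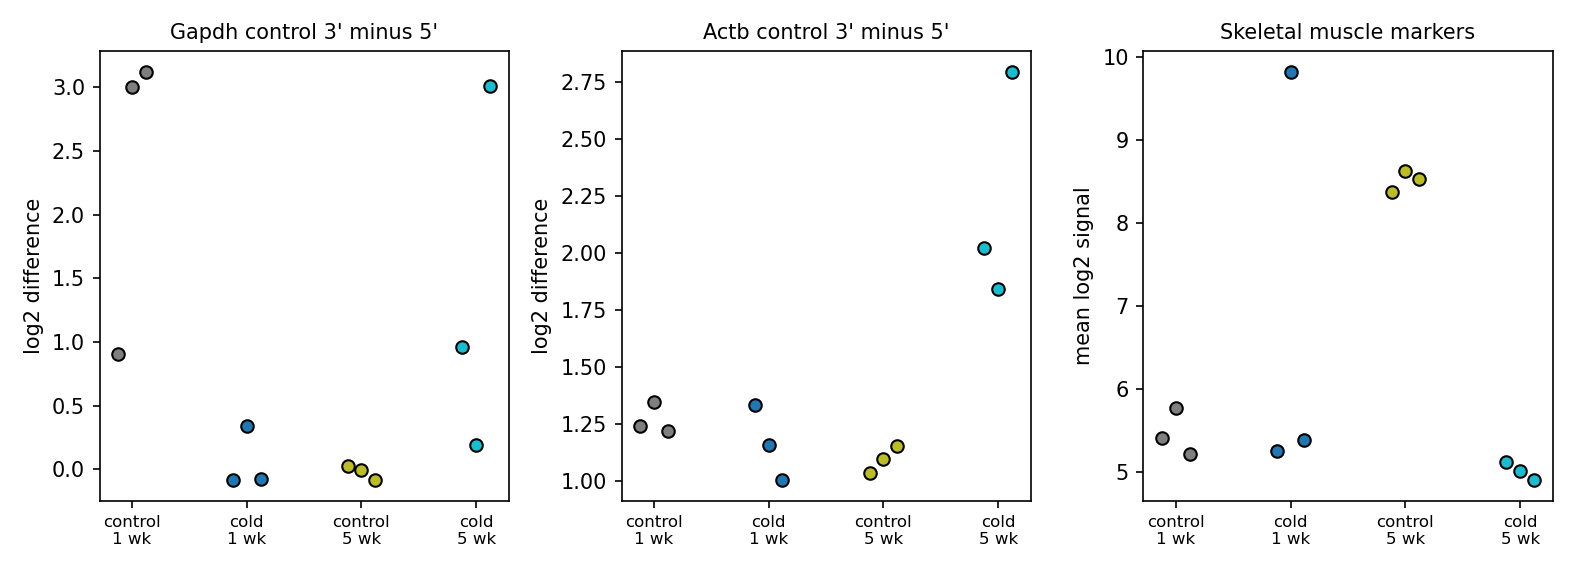
The 3′ minus 5′ log2 signal of the Gapdh and Actb control probe sets and the mean log2 signal of the skeletal muscle markers, 1 point an array, with 3 arrays a group. The Actb difference is highest on the 5 week cold arrays (1.84 to 2.80) and the muscle mean on the 5 week controls (8.36 to 8.63) and 1 cold array of 1 week (9.82).

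The other genes of the pathway were followed on 12 lists, each gene by its brightest probe set. Over all 12855 genes tested in that way, 17.1% rose and 30.5% fell at 1 week, and 13.9% rose and 19.9% fell at 5 weeks. Ucp1, the uncoupling protein that thermogenic fat induces under β-adrenergic drive, served as the measure of the cold response. It read 7.77, 7.65 and 6.69 on the 1 week controls and 15.14, 14.90 and 15.03 in cold, a rise of 7.65 (SE 0.43, adjusted p = 1.83e-06), and it rose by 7.71 (SE 0.43, adjusted p = 1.66e-06) at 5 weeks.

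Of the 9 adrenergic receptors listed, 2 had a probe set and 1 was tested. Adra1b, an α1 receptor that signals through Gq, differed by 0.22 (adjusted p = 0.401) at 1 week and 0.42 (adjusted p = 0.150) at 5 weeks, and neither passed. Adra2c, an α2 receptor, reached 4.02 at most. The 4 tested genes of catecholamine synthesis, uptake and breakdown, Slc6a2, Maoa, Maob and Dbh, did not pass at either time, with values from -0.11 to 0.71, and 0 of them at 1 week and 1 at 5 weeks had an unadjusted p under 0.05.

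Among the 19 tested G protein subunits 6 rose and 6 fell at 1 week, and 4 rose and 6 fell at 5 weeks. Gnai2 and Gnai3, which encode inhibitory α subunits, fell. Gnai3 fell by 0.86 (SE 0.09, adjusted p = 5.27e-05) and Gnai2 by 0.79 (SE 0.10, adjusted p = 1.64e-04) at 1 week, each by its brightest probe set, while another probe set gave -0.57 for Gnai3 and 0.01 for Gnai2. At 5 weeks they fell by 0.32 (adjusted p = 0.0214) and 0.30 (adjusted p = 0.0464), the Gnai3 call being lost without the second or the third control array or the first or second cold array (values -0.37 to -0.27 over the 6 arrays left out in turn), and that of Gnai2 without each of the 6 (-0.34 to -0.26). With each array centred on its median they were -0.16 and -0.14 at 5 weeks and did not pass, and the other probe sets gave 0.18 for Gnai3 and -1.71 for Gnai2 there. Gnal, a stimulatory α subunit related to Gnas, rose by 0.68 (SE 0.12, adjusted p = 0.0012) at 1 week and 0.91 (SE 0.12, adjusted p = 3.40e-04) at 5 weeks. But it was dim, with control means of 3.58 and 3.32, below the filter, and cold means of 4.26 and 4.23. Gnal passed the filter only through its cold arrays, so its rise, which the counts above include, is a description only. Gnao1, an α subunit of the inhibitory class, rose by 1.38 (SE 0.32, adjusted p = 0.0051) and 1.29 (SE 0.32, adjusted p = 0.0109), with 0.99 and 1.09 on its other probe set. Its 1 week call was lost with the Gapdh covariate (1.28, adjusted p = 0.0881) and its 5 week call with the muscle covariate (0.32, adjusted p = 0.531). The β subunit Gnb2 rose by 0.75 (adjusted p = 0.0406) at 1 week and fell by 1.37 (SE 0.27, adjusted p = 0.0032) at 5 weeks, a difference between the times of -2.12 (SE 0.38, adjusted p = 0.0069). Its 1 week call was lost without each single array but the first control one (0.57 to 1.08), and with the Gapdh covariate the value was -0.07.

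Of the 7 tested adenylyl cyclases Adcy3 was the one that rose at 1 week, and Adcy7 (-1.06, SE 0.17, adjusted p = 7.16e-04) and Adcy5 (-0.72, SE 0.14, adjusted p = 0.0022) fell. At 5 weeks Adcy3 and Adcy9 (0.35, SE 0.10, adjusted p = 0.0222) rose, and Adcy6 fell by 0.57 (SE 0.14, adjusted p = 0.0120). The call of Adcy9 was lost without the second or the third control array or the first or second cold array (0.31 to 0.41 over the 6). The 3 other Adcy9 probe sets ranged from -0.16 to 0.22 at 5 weeks. Adcy5 was at 0.15 at 5 weeks, and its second probe set gave 0.26 at 1 week against -0.72. Adcy2 at 1 week (adjusted p = 0.402) and Adcy4 at 5 weeks (adjusted p = 0.108) did not pass.

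Within protein kinase A, the inhibitor peptides went the other way from Prkaca on their brightest probe sets. Of the 9 tested genes of the complex and its inhibitors 1 rose and 4 fell at 1 week, and 3 rose and 3 fell at 5 weeks. Pkia, a peptide that blocks the catalytic subunit, read 7.41, 7.26 and 7.24 on the 1 week controls and 6.43, 6.68 and 6.14 in cold, and 7.71, 7.60 and 7.66 against 6.93, 6.90 and 7.08 at 5 weeks. No array overlapped, and Pkia fell by 0.89 (SE 0.13, adjusted p = 3.09e-04) and 0.69 (SE 0.13, adjusted p = 0.0022).

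Pkig, a second such peptide, fell by 0.77 (SE 0.10, adjusted p = 2.06e-04) and 0.55 (SE 0.10, adjusted p = 0.0023). Pkib, the third, was named after its values were seen, and it fell by 1.51 (SE 0.36, adjusted p = 0.0064) at 1 week and differed by -0.89 (adjusted p = 0.0860) at 5 weeks. The second probe sets of Pkia, Pkig and Pkib had values of -0.42, -0.19 and -0.26 at 1 week. At 5 weeks these were -1.28, -0.48 and 0.075, so Pkib lay above 0 there. Prkacb, which encodes the other main catalytic subunit, fell by 0.42 (SE 0.08, adjusted p = 0.0023) and 0.49 (SE 0.08, adjusted p = 0.0015) on its brightest probe set, but the other one gave 2.30 and -1.32, so its direction depends on the probe set at 1 week.

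**Figure D4:**
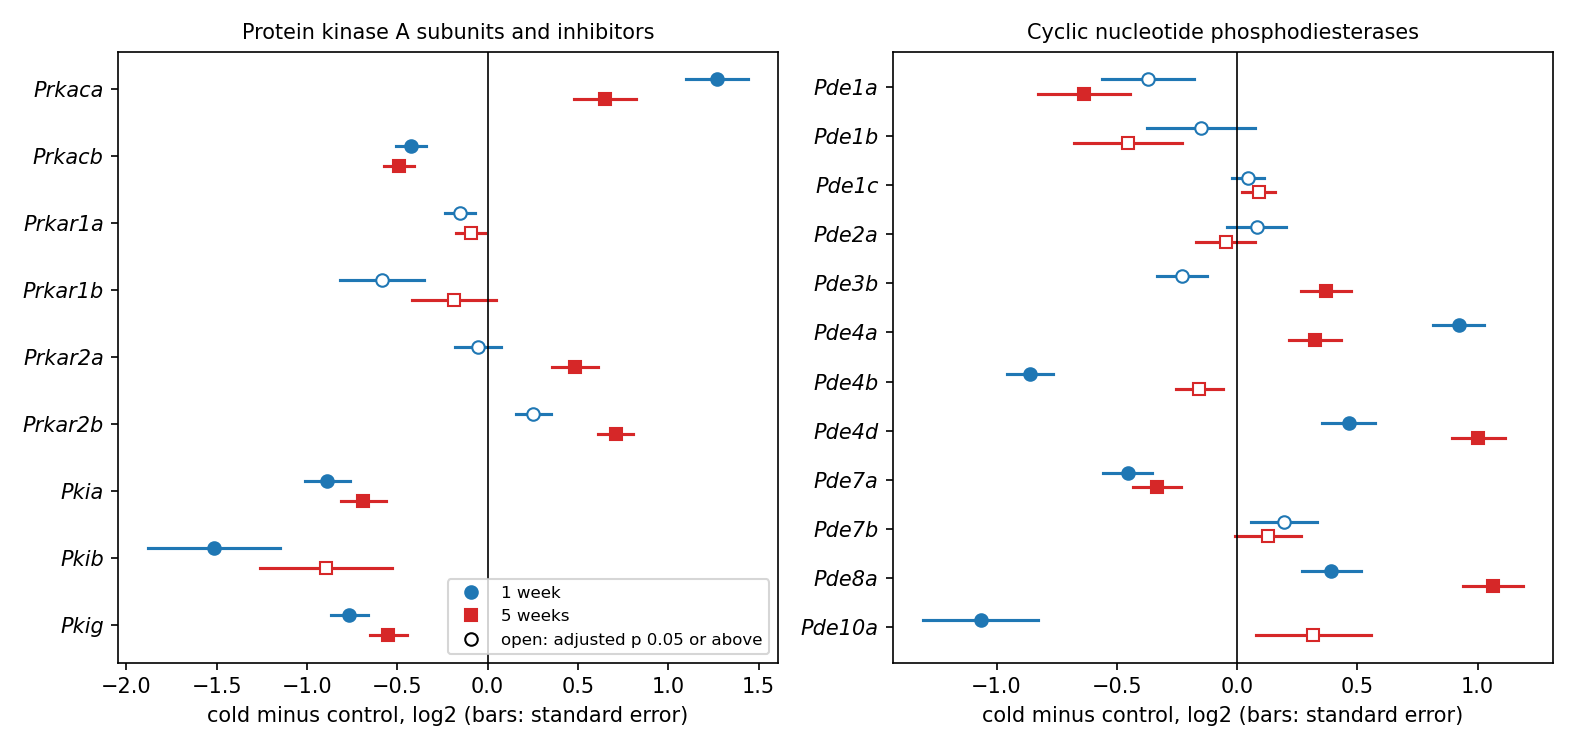
Cold minus control on the log2 scale, with standard errors, for the tested protein kinase A genes (left) and phosphodiesterases (right) at 1 week (blue circles) and 5 weeks (red squares), by the brightest probe set of each gene; open markers did not pass the test. Prkaca lies at 1.27 and 0.65 while Pkia and Pkig lie between -0.89 and -0.55.

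The 12 tested phosphodiesterases were split, with 3 rises and 3 falls at 1 week and 4 rises and 2 falls at 5 weeks. Within family 4, Pde4a rose by 0.92 (SE 0.11, adjusted p = 1.00e-04) at 1 week, when Pde4d rose by 0.46, and Pde4b fell by 0.86 (SE 0.10, adjusted p = 7.98e-05). At 5 weeks Pde4d rose by 1.00, Pde4a by 0.32 (adjusted p = 0.0414, lost without each single array but the first cold one, 0.26 to 0.42), and Pde4b was at -0.16 (adjusted p = 0.244). The 2 other probe sets of Pde4b ranged from -0.95 to -0.70 at 1 week and from -1.23 to -0.55 at 5 weeks. Pde8a, a cAMP-specific enzyme that common phosphodiesterase inhibitors hardly affect, rose by 0.39 (adjusted p = 0.0241, lost without the second or the third control array or the second cold array, 0.28 to 0.47) and 1.06 (SE 0.12, adjusted p = 1.47e-04). On the other Pde8a probe set the values were 0.87 and 0.21. Pde7a, another cAMP-specific enzyme, fell by 0.46 (SE 0.10, adjusted p = 0.0041) at 1 week, where its 6 other probe sets ranged from -1.46 to 0.11. Pde10a, which breaks down both cyclic nucleotides, fell by 1.07 (SE 0.24, adjusted p = 0.0043) at 1 week, with 0.07 on its other probe set. Pde1a, a calmodulin-dependent enzyme, fell by 0.64 (SE 0.19, adjusted p = 0.0278) at 5 weeks, a call lost without the second or the third control or cold array (-0.84 to -0.50), and also under median centring and quantile normalization (-0.48 and -0.51).

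The next list held kinases and arrestins that switch receptors off, together with Rgs proteins, which act on G proteins. Of its 10 tested genes, Rgs genes included, 2 rose and 4 fell at 1 week, and 4 rose and 4 fell at 5 weeks. Grk3, a receptor kinase, rose by 1.21 (SE 0.12, adjusted p = 4.48e-05) and 1.46 (SE 0.12, adjusted p = 2.07e-05), and Grk5 by 0.96 (SE 0.12, adjusted p = 1.70e-04) and 0.50 (SE 0.12, adjusted p = 0.0111). The β-arrestins fell, Arrb1 by 0.64 (SE 0.14, adjusted p = 0.0038) and 1.01 (SE 0.14, adjusted p = 4.30e-04) and Arrb2 by 1.03 at both times (SE 0.15, adjusted p = 3.06e-04 and 5.12e-04). Grk6, another receptor kinase, fell by 0.69 (SE 0.12, adjusted p = 8.31e-04) and 0.41 (adjusted p = 0.0194), against -0.58 and 1.77 at 1 week on its other probe sets. Its 5 week call was lost without the second or the third control array or the first cold array (-0.44 to -0.38), and under median centring (-0.26). Rgs4, which speeds the switching off of G proteins, rose by 1.20 (SE 0.26, adjusted p = 0.0050) at 5 weeks, with 0.13 on its other probe set, and was at 0.20 at 1 week.

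A-kinase anchoring proteins hold protein kinase A at its sites of action, and 5 of 15 rose and 6 fell at 1 week, against 3 and 1 at 5 weeks. Akap1, which anchors the kinase at mitochondria, rose by 1.12 (SE 0.13, adjusted p = 9.67e-05) and 1.07 (SE 0.13, adjusted p = 1.93e-04). Opa1, a mitochondrial fusion protein that also anchors the kinase on lipid droplets, rose by 0.48 (SE 0.08, adjusted p = 0.0011) and 1.08 (SE 0.08, adjusted p = 1.39e-05), and Ezr, which encodes ezrin, fell by 1.20 (SE 0.16, adjusted p = 2.23e-04) and 0.76 (SE 0.16, adjusted p = 0.0049). The second probe set of Akap1 gave 1.57 and 0.03, and that of Ezr 0.30 and 0.29. Akap13 and Akap11 fell at 1 week, by 0.73 (SE 0.11, adjusted p = 4.18e-04) and 0.65 (SE 0.11, adjusted p = 7.95e-04), and were at -0.04 and 0.01 at 5 weeks. The 3 other probe sets of Akap13 ranged from -0.96 to 0.47 at 1 week. Arfgef2 rose by 0.74 (SE 0.10, adjusted p = 3.59e-04) at 5 weeks, with 0.38 on its other probe set.

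Of 14 tested other receptors of adipocytes that couple to Gs or Gi, 1 rose and 7 fell at 1 week, and 1 rose and 3 fell at 5 weeks. Ptger3, a prostaglandin E receptor that couples to Gi, rose by 0.64 (SE 0.15, adjusted p = 0.0053) and 0.79 (SE 0.15, adjusted p = 0.0025). Its other probe set gave 1.74 and 0.17. Hcar1, the lactate receptor through which lipolysis is restrained, fell by 0.77 (SE 0.11, adjusted p = 3.38e-04) and 0.68 (SE 0.11, adjusted p = 0.0012), and Tshr by 0.46 (SE 0.13, adjusted p = 0.0134) and 0.92 (SE 0.13, adjusted p = 4.40e-04), the 1 week call of Tshr being lost under median centring (-0.30, adjusted p = 0.0675). The 2 other probe sets of Tshr ranged from -0.40 to -0.27 at 1 week and from -0.01 to 0.05 at 5 weeks. The smallest adjusted p of this list at 1 week belonged to Ffar2, a receptor for short-chain fatty acids, which fell by 0.99 (SE 0.11, adjusted p = 6.24e-05) and was at -0.01 at 5 weeks. On the other Ffar2 probe set the values were -0.62 and -0.52. Ptger4, a prostaglandin E receptor that couples to Gs, fell by 0.90 (SE 0.10, adjusted p = 7.02e-05) and was at -0.22 (adjusted p = 0.109). Lpar1, a lysophosphatidic acid receptor, fell by 0.79 (SE 0.14, adjusted p = 0.0011) at 1 week, with -1.05 and -0.04 on its other probe sets. Mc2r, the corticotropin receptor, fell by 0.51 (SE 0.14, adjusted p = 0.0170) at 5 weeks, a call lost without the second or the third control array or the second cold array, and under median centring (-0.36) and quantile normalization (-0.39).

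Downstream of the kinase, the CREB factors, coactivators and cAMP effectors held 0 rises and 6 falls among 16 tested genes at 1 week, and 1 rise and 3 falls at 5 weeks, with 0 rises also at an unadjusted p under 0.05 at 1 week. The absence of rises depended on the scaling. Under median centring Crtc2 (0.30, adjusted p = 0.0458) and Sik1 (0.31, adjusted p = 0.0068) rose at 1 week. Crtc2 also rose under quantile normalization (0.30, adjusted p = 0.0477). Creb1, the cAMP response element binding protein, fell by 1.25 (SE 0.20, adjusted p = 5.39e-04) at 1 week on its brightest probe set, and its 4 other probe sets ranged from -1.11 to 0.29. Ep300, a coactivator of CREB, fell by 0.98 (SE 0.13, adjusted p = 2.39e-04) at 1 week and was at 0.06 at 5 weeks. Atf4 fell by 1.00 (SE 0.17, adjusted p = 7.76e-04) at 1 week, where its 2 other probe sets ranged from -0.23 to 0.19, and Crtc3, a CREB coactivator, by 0.92 (SE 0.18, adjusted p = 0.0020). Crem, a relative of Creb1, was at 0.03 at 1 week and fell by 0.78 (SE 0.15, adjusted p = 0.0025) at 5 weeks, with -0.01 on its other probe set. Atf2 rose by 0.34 (SE 0.09, adjusted p = 0.0165) at 5 weeks, where its 4 other probe sets ranged from -0.18 to 0.74, a call lost without the second control array. The 20 tested cAMP-responsive transcripts held 7 rises and 4 falls at 1 week, and 5 rises and 7 falls at 5 weeks. Ppargc1a, which drives mitochondrial gene expression, rose by 1.64 (SE 0.16, adjusted p = 4.09e-05) and 1.79 (SE 0.16, adjusted p = 3.42e-05), and Fosl2, a factor of the AP-1 family, fell by 0.76 and 1.01 (SE 0.09), with 0.16 and 0.35 on its other probe set. Dio2, which activates thyroid hormone in thermogenic fat, rose by 2.54 (SE 0.30, adjusted p = 1.03e-04) and 3.54 (SE 0.30, adjusted p = 2.19e-05), from control means of 3.19 and 3.04, below the filter. Like Gnal, Dio2 passed the filter only through its cold arrays, so its rise, which the counts include, is a description only.

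Of 6 tested proteins of lipolysis that the kinase acts on or that work beside it, 5 rose at 1 week and 1 at 5 weeks, and none fell, also at an unadjusted p under 0.05. Pnpla2, the lipase of the first step, rose by 1.03 (SE 0.20, adjusted p = 0.0021) at 1 week and was at 0.39 (adjusted p = 0.164) at 5 weeks. Lipe, the hormone-sensitive lipase that protein kinase A phosphorylates, rose by 1.60 (SE 0.35, adjusted p = 0.0036) and was at -0.60 (adjusted p = 0.217), with a tested difference between the times of -2.20 (SE 0.49, adjusted p = 0.0142). Its other probe set gave 0.56 and 0.60. Mgll, the monoglyceride lipase, rose by 0.64 (SE 0.12, adjusted p = 0.0016) and by 0.39 (adjusted p = 0.0299), the 5 week call being lost without each single array but the third cold one (0.34 to 0.48). Abhd5, the coactivator of Pnpla2, rose by 0.61 (SE 0.16, adjusted p = 0.0100) at 1 week, and Fabp4, the fatty acid carrier of adipocytes, by 0.32 (SE 0.08, adjusted p = 0.0073). On the other Abhd5 probe set the 1 week value was 0.13. With the Gapdh covariate all 5 of the 1 week calls were lost, the values being 0.52 for Lipe (adjusted p = 0.0824), 0.51 for Pnpla2 (0.0918), 0.36 for Mgll (0.0752), 0.36 for Abhd5 (0.254) and 0.26 for Fabp4 (0.139). Under quantile normalization Fabp4 was at 0.09 (adjusted p = 0.353).

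**Figure D5:**
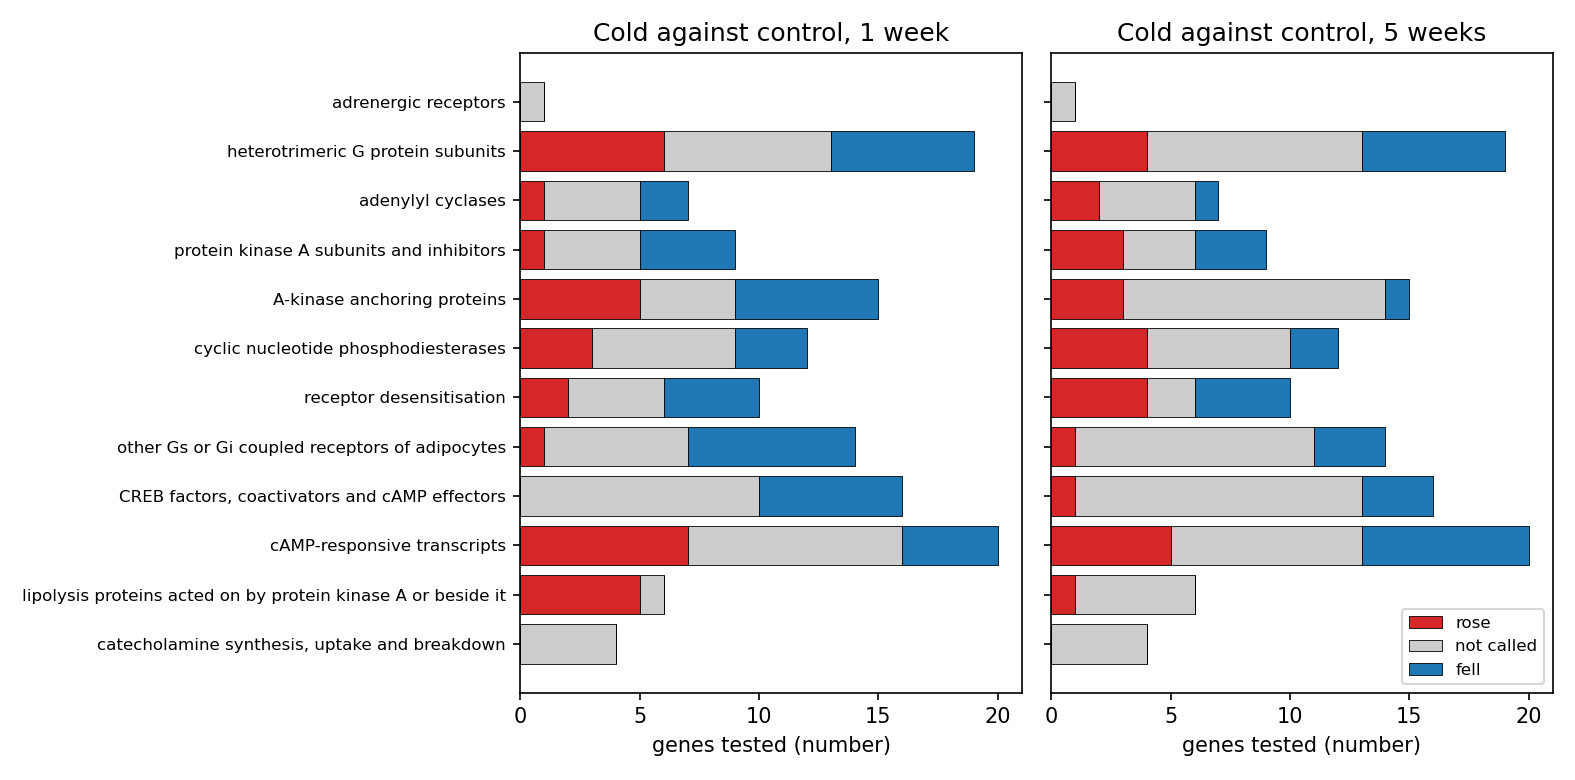
Number of tested genes on each of the 12 pathway lists that rose (red), fell (blue) or were not called (grey) in cold at 1 week (left) and 5 weeks (right), by the brightest probe set of each gene. The lipolysis list holds 5 rises at 1 week, all 5 of which are lost with the Gapdh covariate, and no fall. The list of CREB factors, coactivators and cAMP effectors holds 6 falls and no rise at 1 week, where Crtc2 and Sik1 rose under median centring.

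With the Gapdh difference as a covariate 34 of the 73 pathway genes called at 1 week were lost, and with the Actb difference 46 of the 57 called at 5 weeks. Among the list genes described that are not members, the 1 week calls of Adcy5, Pkib, Pde7a, Pde8a, Pde10a, Ptger3 and Lpar1 were also lost with the Gapdh covariate. At 5 weeks the calls of Akap1, Opa1, Grk3, Ppargc1a, Dio2, Ucp1 and Fosl2 held with both the Actb and the muscle covariate. Those of Gnal, Prkacb, Arfgef2, Pde8a, Grk5, Arrb1, Arrb2, Ptger3 and Tshr held with the muscle covariate but not with the Actb covariate, and the other 5 week calls described for such genes held with neither.

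Genes whose cold pattern was most like that of a member were sought for the 4 members whose brightest probe set was called in the same direction at both times. Likeness was the root mean square difference of log2 signals over the 12 arrays, after each gene's mean over them was taken away. Nearest to Gnas were Mthfd2l (0.06), Vdac2 (0.07) and Marchf5 (0.08), where the deviation of Gnas itself was 0.25. Nearest to Adcy3 were Alkbh3, Oxnad1 and Afg3l2, each at 0.10 against a deviation of 0.53. Agpat2 (0.14), Dhrs11 (0.16) and Txn2 (0.16) were nearest to Prkaca, with a deviation of 0.54, and Pink1 (0.13), Btbd1 (0.14) and Gtf3c3 (0.15) to Pde4d, with 0.44. These likenesses hold over 12 arrays of 4 groups and are a description only.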

How the data were processed

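Total RNA was extracted with Trizol, and 5 µg of it was amplified and given a biotin label, per the labels. The values deposited for the 12 arrays were log2 signals that the authors had made with GCRMA, per the submitters' processing notes. This method removes background, scales arrays to each other and condenses the probes of a probe set. Which version and options were used is not given in the sources used here. Adrb1, Adrb3 and Adra2a were not analysed here. Gene symbols came from the array annotation, updated by gene identifier (34958 probe sets named 1 gene, 932 several and 9211 none).

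The deposited log2 values were fitted in R 4.3.3 with limma 3.58.1 (lmFit, eBayes), as 4 group means over 12 arrays, for the 26510 probe sets above log2 4 on at least 3 arrays, without the 64 controls. P-values were 2-sided and adjusted by Benjamini-Hochberg over all of them, with 0.05 as the threshold. The fit was tested on simulated data. The number of arrays, 3 a group, limits the precision.

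Groups follow the array titles, 3 arrays each. The 5 contrasts were cold against control at each time, the difference of those effects, and, within each temperature, 5 weeks against 1 week. The members and gene lists were chosen with earlier results of these data known. All members are named, and of each list up to 4 genes with the smallest adjusted p at each time, plus Ucp1. Pkib, Crtc2, Sik1 and Id1, and Lipe and Grk5 at 5 weeks, were named outside this rule. Alternatives changed the filter, the scaling, the probe set kept, the variance model, the arrays fitted, the covariates and single arrays. Promoter windows were taken from RefSeq, build GRCm38.p6, and Pde3b had none there.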

Additional observations from a re-analysis of the deposited data

Results flagged for a closer look

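For 4 member probe sets the cold effect at 5 weeks differed from that at 1 week by the limma interaction test. Adcy3 on its dim probe set 1421959_s_at differed by -1.84 (adjusted p = 0.0193), from 1.67 at 1 week to -0.17 at 5 weeks, with cold above control in 3 of 3 arrays at 1 week and 1 of 3 at 5 weeks. Pde3b differed by 0.60 (adjusted p = 0.0198), from -0.23 to 0.37. Pde4d differed by 0.54 (adjusted p = 0.0352), from 0.46 to 1.00, and Prkar2b on 1456475_s_at by 0.46 (adjusted p = 0.0407), from 0.25 to 0.71, both with cold above control on 6 of 6 arrays. All 4 calls were lost with the Gapdh, the skeletal muscle or the Actb covariate. Of all tested probe sets, 19.6% were called for this difference without a covariate. With these covariates it was 0.0189%, 4.82% and 0%, so few calls of any probe set remained. Leaving out single arrays ended the call of Pde4d in 8 of 12 cases, of Prkar2b in 10, of Pde3b in 2 and of Adcy3 in 0.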

How the results depend on the processing

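Over the alternatives run for the 13 member probe sets, no called value changed sign. At 1 week 206 of 225 values kept their side of the threshold, 10 lost and 9 gained a call. At 5 weeks 195 of 225 did, 28 lost and 2 gained, and for the difference between the times 251 of 303 did, 41 lost and 11 gained. The main counts of called members were 10 at 1 week, 10 at 5 weeks, 4 for the difference, 5 for the change over time in cold and 1 for that in control. Kept to the brightest probe set of each gene, which leaves 6 members, they were 5, 6, and 2 in cold. Fitted on the compared arrays alone, the cold count over time was 3.

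With the Gapdh 3′ to 5′ difference as a covariate the difference count was 0 and the count over time in cold 2. Of all tested probe sets 0.0189% and 15.2% were called there. With the skeletal muscle mean, the counts were 5 at 5 weeks, 0 for the difference and 3 in cold over time. The shares of all tested probe sets called were 14.2%, 4.82% and 23.4%. Another 3 alternatives were chosen after seeing the data. With the Actb difference, 3.98%, 0% and 0.0641% of tested probe sets were called at 5 weeks, for the difference and in cold over time. The member counts there were 2, 0 and 0. With the 3 very similar 5 week controls averaged and counted as 1, which assumes that the lone value varies like the other groups, they were 5 at 5 weeks and 0 for the difference. Without control_1wk replicates 2 and 3, which carry the highest Gapdh differences of that group and leave a lone array there, the difference count was 0 and the 1 week count 7. The cause of these changes was not tested beyond the smaller number of arrays or genes that some settings leave.

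Leaving out each array in turn, the counts ran from 9 to 11 at 1 week, 8 to 9 at 5 weeks, 1 to 5 for the difference, 2 to 4 in cold over time and 0 to 1 in control. The single control call was also lost (0) without a filter, under quantile normalization, with the brightest probe set, with each covariate and in both other added settings. Arrays with the same replicate number in their titles showed no strong shared deviation, which cannot show whether they were paired. Deviations from the group means of same-numbered arrays correlated at -0.169 to 0.157 over 18 pairs, 2 of them above 0.1. With a replicate block the counts were 10, 10, 4, 5 and 0. Of the member counts 58 stayed within 1.5 times their main value and 38 did not, and of the list counts 711 did and 153 did not, and a single array could end 13 of 73 pathway calls at 1 week and 23 of 57 at 5 weeks. With the Gapdh covariate Gnb2 at 1 week changed from 0.75 to -0.07, and with the Actb covariate Id1 at 5 weeks from -0.70 to 0.34.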
